A study of Mus musculus with 18 samples.

Results

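The interleukin-12 (IL-12) cytokine family was followed in bone marrow-derived macrophages (BMDMs) through the 5 genes that encode its chains, Il12a, Il12b, Il23a, Il27 and Ebi3. The genes were picked by symbol, and all 5 were among the 24485 genes listed for every library. The study compared how the BET bromodomain inhibitor (+)-JQ1 (JQ1 below) and exogenous IL-10 altered the response to lipopolysaccharide (LPS), a bacterial product that activates macrophages. RNA was sequenced from 18 libraries in 6 groups of 3, and replicate numbers mark matched cultures from 3 mice. All mice were Il10-/- on the C57BL/6J background, so every group, controls included, carried this genotype, and the methods give the donors as males aged 12 weeks. BMDMs received JQ1 at 500 nM, IL-10 at 10 ng/mL or neither for 12 hours, and then LPS at 50 ng/mL or saline buffer for 4 hours. The groups are named Unstimulated, JQ1, IL-10, LPS, LPS + JQ1 and LPS + IL-10. The labels call the cells without either agent untreated, whereas the methods name a vehicle before LPS and an untreated, unstimulated control. Solvent and LPS therefore cannot be told apart in LPS against Unstimulated. The same holds for solvent and agent in JQ1 or IL-10 against Unstimulated, and both interactions also use the Unstimulated group.

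Members of the family are secreted as pairs of chains. The product of Il12b pairs with that of Il12a to form IL-12, which drives interferon gamma production by T and NK cells, and with that of Il23a to form IL-23, which sustains Th17 cells. The products of Il27 and Ebi3 form IL-27, which both activates and restrains T cells, and the product of Ebi3 can also pair with that of Il12a to form IL-35. Macrophages and dendritic cells make these chains after Toll-like receptor signals, and IL-10 is a known brake on them. BET proteins read acetylated histones and help to start and elongate transcripts at inducible genes.

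In the mm9 build used for these files, Il12a lies at chr3:68494566-68502469 on the plus strand, Il12b at chr11:44213565-44227535 on the plus strand and Il23a at chr10:127733196-127735140 on the minus strand. Il27 lies at chr7:133732524-133738455 on the minus strand, where it overlaps Apobr on the other strand, and Ebi3 at chr17:56092046-56096444 on the plus strand, where it overlaps Gm16712 on the other strand. Counting took no account of strand, so reads in these overlaps are uncertain. Apobr had 1251 to 5071 expected counts and Gm16712 had 3 to 180 over the 18 libraries. RefSeq promoter windows (250 bases before to 50 after the start site, build GRCm38.p6) were found for 3 of the 5 genes. Those of Il12b, the chain shared by IL-12 and IL-23, of Ebi3, the only member with a sizeable level without LPS, and of both start sites of Il12a, the member that JQ1 lowered most, are shown so that their letters can be set beside the levels below. Capitals mark matches to 7 motifs searched on both strands.
Il12b promoter, chr11:44399813-44400112, plus strand: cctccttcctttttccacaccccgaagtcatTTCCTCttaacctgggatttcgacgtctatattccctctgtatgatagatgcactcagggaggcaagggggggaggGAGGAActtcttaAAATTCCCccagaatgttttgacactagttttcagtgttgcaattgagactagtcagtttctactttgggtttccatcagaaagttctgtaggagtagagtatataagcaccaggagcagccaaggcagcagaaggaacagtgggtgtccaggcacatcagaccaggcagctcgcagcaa
Ebi3 promoter, chr17:55952373-55952672, plus strand: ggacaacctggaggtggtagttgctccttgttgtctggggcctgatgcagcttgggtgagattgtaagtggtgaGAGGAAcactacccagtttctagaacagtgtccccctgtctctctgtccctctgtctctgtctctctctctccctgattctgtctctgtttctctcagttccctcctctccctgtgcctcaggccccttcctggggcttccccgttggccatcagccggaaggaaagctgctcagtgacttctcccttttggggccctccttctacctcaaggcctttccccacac
Il12a promoter, first start site, chr3:68690394-68690693, plus strand: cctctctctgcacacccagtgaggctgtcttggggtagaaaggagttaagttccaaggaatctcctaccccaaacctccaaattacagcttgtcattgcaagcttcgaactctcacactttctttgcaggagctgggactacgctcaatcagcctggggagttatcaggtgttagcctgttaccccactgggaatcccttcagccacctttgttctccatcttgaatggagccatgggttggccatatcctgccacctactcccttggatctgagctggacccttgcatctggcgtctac
Il12a promoter, second start site, chr3:68691174-68691473, plus strand: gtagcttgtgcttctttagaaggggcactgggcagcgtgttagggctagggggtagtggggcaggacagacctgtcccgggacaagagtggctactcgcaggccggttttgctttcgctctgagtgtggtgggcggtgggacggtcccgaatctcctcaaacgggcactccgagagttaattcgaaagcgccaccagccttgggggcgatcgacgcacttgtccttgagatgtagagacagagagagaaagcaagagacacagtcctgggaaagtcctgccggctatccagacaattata
In the Il12b window the NF-kB letters GGGAANTT matched at position -130 relative to the start site on the minus strand, and the PU.1 letters GAGGAA matched at -219 on the minus strand and at -143 on the plus strand. The Ebi3 window held the PU.1 letters at -176 on the plus strand. Of 32851 mouse promoter windows of the same length, 4.24% held the NF-kB letters and 28.3% the PU.1 letters. The AP-1 letters searched were TGANTCA, found in 7.81% of windows. The C/EBP letters searched were TTGCNNAA, found in 10.8%. The E-box was searched as CACGTG, found in 7.15%. The TATA box was searched as TATAAA, found in 13.6%, and an IRF element was found in 3.44%. No motif overlapped another in these windows, and neither Il12a window matched any of the 7. Such matches describe letters and were not tested for binding. Il23a and Il27 had no entry.

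Library totals ran from 6781952 to 28289498 expected counts, so 3 counts, taken as the floor of detection, corresponded to 0.106 to 0.442 CPM (counts scaled to the library total). Intervals and floors given here cover counting error only, since the reads carry no molecular identifiers and 1 molecule can give several of them. The macrophage label was checked on 9 markers, of which 8 were listed and all 8 were detected in every group, with a summed level of 14316 to 29066 TPM (a level scaled to transcript length and library total). Expected counts of Il10 itself were 16 to 196 per library. As the altered part of the gene was not given in the sources used here, these reads do not check the genotype. In bulk RNA, fewer cells that make a transcript and less RNA per cell cannot be told apart.

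Without LPS, Ebi3 was the only member above 2 TPM in any library. Its level in Unstimulated cells was 34.4, 36.8 and 36.2 TPM in replicates 1, 2 and 3. Il27 was at 0.63, 0.43 and 0.36 TPM, Il12a at 0.20, 0 and 0 TPM, and Il23a had no count in any of the 9 libraries without LPS. Il12b was at 1.11, 0.10 and 0 TPM, and replicate 1 held 24 of its 25 counts. Ebi3 levels thus varied little between replicates, while Il12b, at this low level, came almost wholly from 1 library.

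All 5 genes rose with LPS. Il27, the chain particular to IL-27, reached 2278, 2105 and 2025 TPM, and Il12b reached 1365, 1313 and 1821 TPM. These were the most abundant members, with Il27 at rank 44 and Il12b at rank 70 of 24485 genes by mean TPM. Ebi3 rose to 326, 256 and 290 TPM, Il12a to 70.5, 74.1 and 79.7 TPM, and Il23a to 15.6, 15.7 and 16.6 TPM. Il23a was thus the least abundant member, and in TPM its 3 LPS libraries lay closest together. No LPS library overlapped any Unstimulated library for any member.

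Adjusted p-values in the following are those of the DESeq2 Wald test, fitted over all genes and libraries on expected counts. All 5 members were higher with LPS than without, in a comparison where 64.5% of tested genes were called and 31.6% were called higher. The ratio of normalised counts (counts scaled to library size) was 13.99 for Ebi3 (95% interval 13.03 to 15.0; log2 fold change 3.81, SE 0.15, adjusted p = 1.79e-149). Il27 was 7738-fold higher (interval 3555 to 21087). Il12b was 5800-fold higher (3929 to 8962), but this ratio was 89372 without Unstimulated replicate 1, which left 1 count, and 3239 without Unstimulated replicate 3. The ratio for Il12a was 1713 (474 to 14151) because only 2 counts, both in replicate 1, stood in the denominator. Without Unstimulated replicate 1 it was at least 704, and without Unstimulated replicate 3 it was 957. Il23a was at least 263-fold higher, taking the floor of 3 counts over the Unstimulated group, and at least 147-fold to 217-fold without 1 of its libraries. Directions held in every alternative, although the fold also depended on scaling, with Ebi3 at 2.88 on the log2 scale under total-count scaling, where the median of all genes was -1.02 against -0.07 here.

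**Figure D1:**
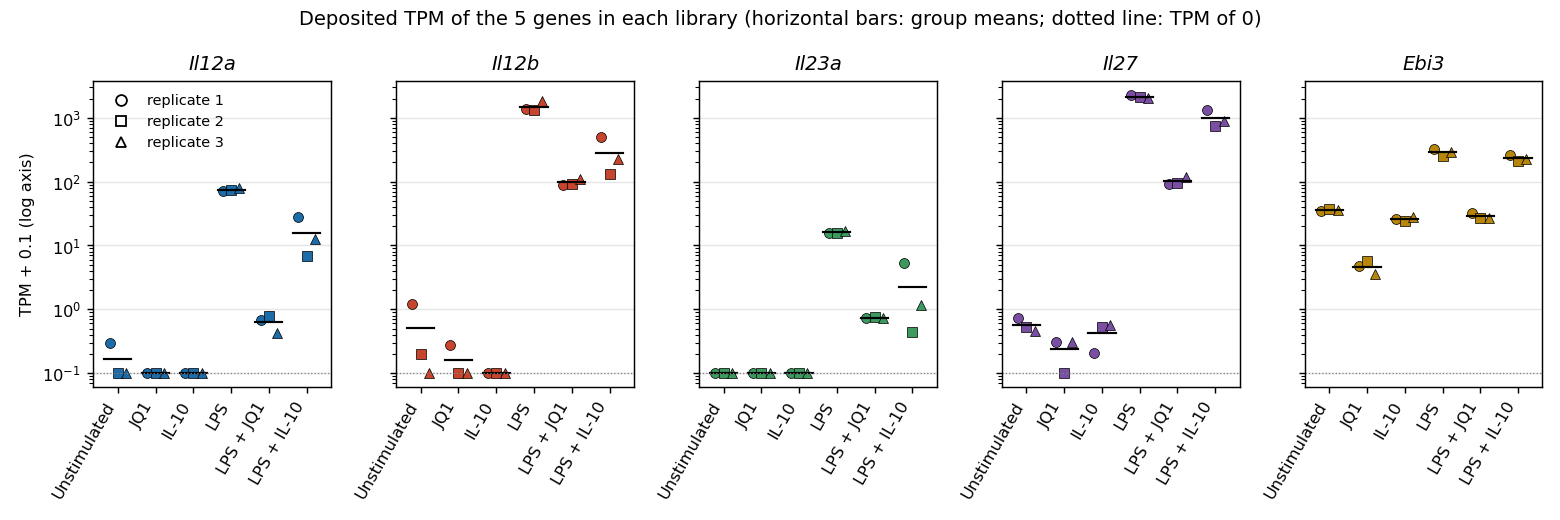
Deposited TPM plus 0.1 on a log axis for each gene in the 18 libraries, by group, with a symbol per replicate, a bar at the group mean and a dotted line at a TPM of 0. Only Ebi3 stood clear of the dotted line by more than 2 TPM without LPS, the 3 LPS libraries were the highest for Il12a, Il12b, Il23a and Il27, and the LPS + IL-10 libraries were more spread than those of LPS + JQ1 for Il12a, Il12b, Il23a and Il27.

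JQ1 pretreatment lowered all 5 members during LPS, in a comparison where 57.3% of tested genes were called and 32.9% were called lower. Il12a had the largest fall. Its level with LPS + JQ1 was 0.58, 0.70 and 0.33 TPM, from 6, 7 and 3 counts, which was 0.652%, 0.720% and 0.370% of the normalised count in the LPS library of the same replicate. The log2 fold change was -7.41 (SE 0.69, adjusted p = 1.27e-25). All LPS + JQ1 libraries lay far below the LPS libraries, and replicate 3 had only the floor of 3 counts.

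Il23a, the IL-23-specific chain, fell to 0.63, 0.65 and 0.62 TPM with LPS + JQ1 (7, 7 and 6 counts), or 3.18%, 3.15% and 3.29% of the LPS level, a log2 fold change of -4.96 (SE 1.03, adjusted p = 4.50e-06). Il27 fell to 93.3, 96.2 and 120.0 TPM, or 3.26%, 3.48% and 5.31% of the LPS level (log2 fold change -4.67, SE 0.28, adjusted p = 4.73e-61). Il12b fell to 88.7, 93.2 and 109.8 TPM, or 5.15%, 5.43% and 5.28% (log2 fold change -4.24, SE 1.00, adjusted p = 6.32e-05). The percentages of Il12b and Ebi3 differed little between mice. Those of Il23a were also close, but 7, 7 and 6 counts are too few to show evenness between mice. No LPS + JQ1 library overlapped an LPS library for any member.

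Ebi3 fell least, to 32.7, 27.1 and 26.8 TPM, or 7.95%, 8.11% and 8.16% of the LPS level (log2 fold change -3.63, SE 0.15, adjusted p = 4.00e-135). In TPM these libraries lay below all Unstimulated libraries. In normalised counts the groups overlapped, with means of 288 ± 43.1 and 256 ± 16.5 (SD, n = 3 each). The other 4 members remained above their Unstimulated libraries under JQ1. All 5 falls were called, with the same sign, in each of the 18 or 19 alternatives run for each gene.

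LPS still raised all 5 members in the presence of JQ1, where 58.6% of tested genes were called and 27.6% were called higher. Il12b in LPS + JQ1 against JQ1 had a ratio of 1848 (interval 722 to 6786), with all 4 of its JQ1 counts in replicate 1. Without JQ1 replicate 1 it was at least 1591-fold higher, and without JQ1 replicate 2 or 3 the ratio was 1274 or 1230. Il27 had a ratio of 877 (242 to 7249). Ebi3 was 7.66-fold higher (6.32 to 9.34; log2 fold change 2.93, SE 0.19, adjusted p = 3.56e-50). Il12a was at least 6.52-fold and Il23a at least 8.15-fold higher, both from a group without any count, and these bounds were 4.21 to 4.50 and 5.26 to 5.62 without 1 of the JQ1 libraries. edgeR called 4 of the 5, all but Il12a (adjusted p = 0.0744). With limma on log2(TPM + 1), which compresses low values, 3 of the 5 were called (Il12b, Il27 and Ebi3).

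Whether JQ1 changed the rise itself was tested as an interaction, in which 41.5% of tested genes were called and 23.8% were called lower. The rise was smaller with JQ1 for Il12a (difference in log2 fold change -5.59, SE 1.78, adjusted p = 0.00573), Il27 (-3.13, SE 1.24, adjusted p = 0.0309) and Ebi3 (-0.88, SE 0.24, adjusted p = 0.00120). Il12a had only 2 counts over the Unstimulated and 0 over the JQ1 libraries, and Il27 had 6 and 2. Their differences thus rest on few counts. For Il23a the difference was -4.91 (SE 2.19, adjusted p = 0.0583) and for Il12b it was -1.70 (SE 1.63, adjusted p = 0.428), with few counts or none in the groups without LPS. Under total-count scaling the calls for Il27 (-2.58, adjusted p = 0.0623) and Ebi3 (-0.32, adjusted p = 0.244) were lost, and edgeR called only Ebi3.

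IL-10 pretreatment lowered 4 of the 5 members during LPS, in a comparison where 17.2% of tested genes were called and 8.81% were called lower. In LPS + IL-10, Il12a was at 28.1, 6.76 and 12.7 TPM, which was 37.3%, 8.32% and 14.9% of the LPS level of the same replicate (log2 fold change -2.31, SE 0.60, adjusted p = 0.00122). Il23a was at 5.12, 0.34 and 1.07 TPM, or 30.6%, 1.95% and 6.02% (55, 3 and 15 counts; log2 fold change -2.93, SE 0.99, adjusted p = 0.0223). Il27 was at 1334, 735 and 877 TPM, or 55.1%, 32.0% and 40.4% (log2 fold change -1.22, SE 0.28, adjusted p = 0.000175). Replicate 1 was the highest and replicate 2 the lowest for each of these genes, and all 9 values lay below the LPS libraries.

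Il12b was at 494, 133 and 226 TPM in LPS + IL-10, or 33.8%, 9.18% and 11.7% of the LPS level, again highest in replicate 1 and with no overlap with LPS. The log2 fold change was -2.46 with an SE of 1.00, and the adjusted p of 0.0723 missed the threshold. This SE rests on a spread shared with the groups without LPS, where Unstimulated replicates 1, 2 and 3 held 24, 1 and 0 Il12b counts. It does not measure the spread of the LPS and LPS + IL-10 cultures alone. The call depended on the fit, since it passed with edgeR's quasi-likelihood test (adjusted p = 0.000200), with DESeq2 on only the groups compared (0.00140) and with limma on log2(TPM + 1) (4.82e-05). All replicate 1 libraries were sequenced on lane 7, whereas the LPS-treated libraries of replicates 2 and 3 were on lane 8. With lane as a covariate the fall was -2.79 (DESeq2 adjusted p = 0.0198). Without replicate 1, which left only lane 8 libraries in LPS and LPS + IL-10, it was -3.24 (DESeq2 adjusted p = 1.71e-18). That fit kept lane 7 libraries of the groups without LPS in the shared estimate of spread. It also dropped Unstimulated replicate 1, which held 24 Il12b counts, so this p-value does not isolate lane. The part of lane in the spread between mice was not tested.

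Ebi3 with LPS + IL-10 was at 257, 214 and 223 TPM, or 73.8%, 76.4% and 72.0% of the LPS level (log2 fold change -0.43, SE 0.14, adjusted p = 0.0122). This was the smallest and most even fall, and in TPM the highest LPS + IL-10 library overlapped the lowest LPS library. The call was lost in 8 of 19 alternatives, with values between -0.57 and -0.29. The call for Il23a was lost in 6 of 18 alternatives and that for Il27 in 2 of 18, all with a fall. Without replicate 2 only 1 of the 5 members, Il12a, was called. Without LPS + IL-10 replicate 1, the fall of Il23a was -4.55 against -2.93 with it.

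**Figure D2:**
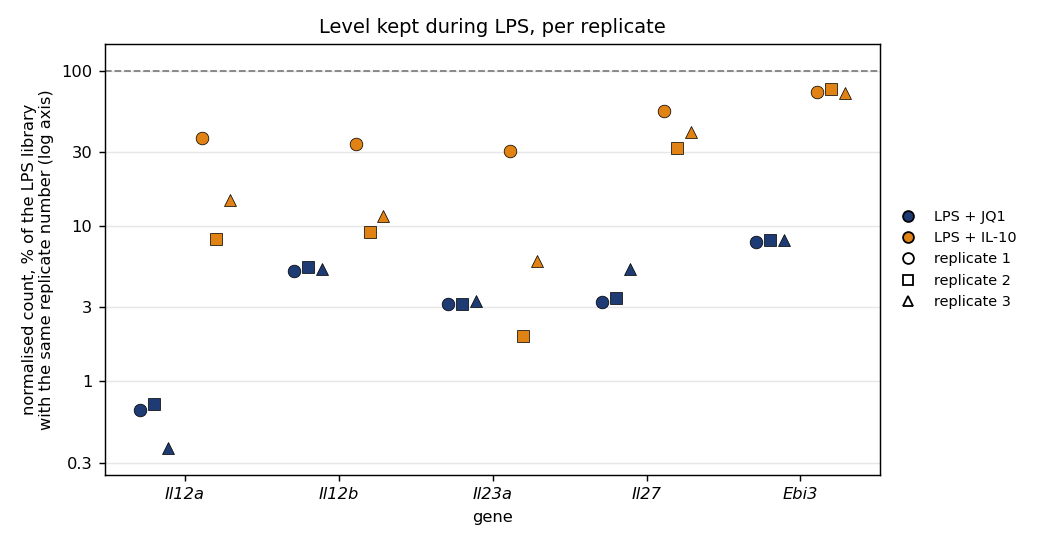
Normalised count of each gene in LPS + JQ1 (blue) and LPS + IL-10 (orange) as a percentage of the LPS library with the same replicate number, on a log axis with a dashed line at 100%. JQ1 left between 0.370% and 8.16% of the LPS level, and IL-10 left between 1.95% and 76.4%, with replicate 1 the highest of the IL-10 values for Il12a, Il12b, Il23a and Il27.

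The rise with LPS remained in cells given IL-10, with all 5 members higher in LPS + IL-10 than in IL-10, where 67.0% of tested genes were called and 33.2% were called higher. Ebi3 was 14.8-fold higher (interval 13.8 to 15.9) and Il27 had a ratio of 5892 (2524 to 18149). Il12b was at least 12886-fold, Il12a at least 336.7-fold and Il23a at least 49.1-fold higher. Without IL-10 replicate 1, the deepest of these controls, the ratio for Il27 was 3652 and the bounds were 6390, 167 and 24.3. For the interaction of LPS with IL-10, in which 7.44% of tested genes were called, DESeq2 called 0 of the 5 members. None had an unadjusted p under 0.05, edgeR also called 0, and limma on log2(TPM + 1) called 4, all but Ebi3.

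In the direct comparison, LPS + JQ1 was lower than LPS + IL-10 for 3 of the 5 members, where 55.3% of tested genes were called and 31.6% were called lower. This comparison and those with LPS share libraries and are not independent. Il12a was lower by -5.10 on the log2 scale (SE 0.70, adjusted p = 1.31e-12), Il27 by -3.46 (SE 0.28, adjusted p = 7.65e-34) and Ebi3 by -3.20 (SE 0.15, adjusted p = 1.55e-104). Il12b (-1.78, SE 1.00, adjusted p = 0.123) and Il23a (-2.04, SE 1.04, adjusted p = 0.0855) did not pass with the spread shared by all 6 groups. edgeR called all 5, as did DESeq2 on only these groups. Il12b libraries did not overlap between the groups, while the replicate 2 library of LPS + IL-10 had less Il23a than any LPS + JQ1 library. Without LPS + IL-10 replicate 1 the differences were -1.02 for Il12b and -0.41 for Il23a.

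For Il12a, Il12b and Il27 the order of levels was LPS, LPS + IL-10, LPS + JQ1 and then the groups without LPS, with no overlap between neighbours until the last 3 groups, which overlapped. Il23a kept this order, but its LPS + IL-10 and LPS + JQ1 libraries overlapped. Ebi3 was ordered differently in TPM, with LPS and LPS + IL-10 overlapping at the top, then Unstimulated, then LPS + JQ1 overlapping IL-10, and JQ1 alone lowest. With LPS + JQ1 the mean TPM ranks were 1033 for Il27 and 1087 for Il12b, compared with 127 and 490 with LPS + IL-10.

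Without LPS, only Ebi3 could be followed. JQ1 alone took it to 4.72, 5.55 and 3.47 TPM, below every other group (log2 fold change against Unstimulated -2.75, SE 0.19, adjusted p = 1.60e-43). It was the 1 member called, where 45.7% of tested genes were called and 23.7% were called lower, and this call held in all 19 alternatives. IL-10 alone gave 25.7, 24.5 and 27.8 TPM, without overlap with Unstimulated (log2 fold change -0.52, SE 0.15, adjusted p = 0.0307), but the call was lost in 10 of 19 alternatives.

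Il12b had no count in any IL-10 library, so that it was at least 12.5-fold lower than in Unstimulated cells (adjusted p = 0.0106). This rested on replicate 1 of Unstimulated, without which the adjusted p was 0.895, and the call was also lost with the replicate block (0.0523). With both, 2 of the 5 members were called lower with IL-10 alone, where 2.81% of tested genes were called and 1.01% were called lower, 1 of 5 with the block, and edgeR called 0.

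Because the chains act in pairs, their TPM were also compared within each library, which removes library scaling. Each ratio was tested between the LPS groups with an exact two-sided permutation test, for which 3 against 3 libraries cannot give p below 0.1. The ratio of Il12b to Il12a, the chains of IL-12, was 19.4, 17.7 and 22.9 with LPS and 17.6, 19.6 and 17.9 with LPS + IL-10, and these overlapped. With LPS + JQ1 it was 153, 133 and 333, clear of both other groups. The log2 difference from LPS was 3.25 (exact p = 0.1, adjusted over 9 comparisons 0.18). The Il12a counts of 6, 7 and 3 make these ratios imprecise, and the interval in replicate 3 ran from 114 to 1615.

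The ratio of Il12b to Il23a, the chains of IL-23, was 87.2, 83.6 and 109 with LPS and 141, 143 and 177 with LPS + JQ1, without overlap (log2 difference 0.72, exact p = 0.1, adjusted 0.18). With LPS + IL-10 it was 96.6, 390.0 and 212, the most uneven of the ratios, and overlapped both other groups. The ratio of Il27 to Ebi3, the chains of IL-27, was 6.98, 8.24 and 6.98 with LPS. It was lower with LPS + JQ1, at 2.85, 3.55 and 4.48 (log2 difference -1.05, exact p = 0.1, adjusted 0.18), and with LPS + IL-10, at 5.19, 3.44 and 3.93 (-0.84, exact p = 0.1, adjusted 0.18). Both agents thus left less Il27 per Ebi3 in all 3 libraries, but no ratio could pass the threshold in this design. The files counted Il27 on a transcript of 705 bases, which equals its coding length, so its TPM relative to other genes rests on the coding part alone.

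**Figure D3:**
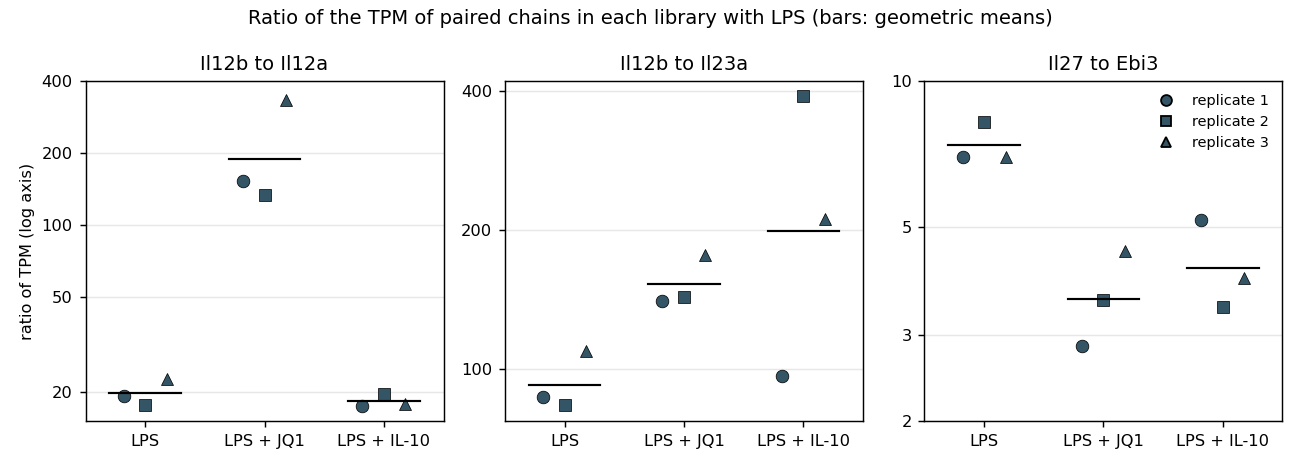
Ratio of the TPM of paired chains in each library with LPS, on log axes, with a symbol per replicate and a bar at the geometric mean. The ratio of Il12b to Il12a stood at 133 or more in LPS + JQ1 and at 22.9 or less in the other groups, and the ratio of Il27 to Ebi3 was highest in the 3 LPS libraries.

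LPS induced 2459 genes (adjusted p under 0.05, log2 fold change above 1, mean normalised count at least 10). Among them the median log2 fold change with JQ1 was -0.87. The members stood at ranks 11 (Il12a), 72 (Il23a), 85 (Il27), 121 (Il12b) and 189 (Ebi3) from the largest fall. With IL-10 the median was -0.16 and the ranks were 2 (Il23a), 5 (Il12b), 8 (Il12a), 71 (Il27) and 491 (Ebi3). Ebi3 was thus the least lowered member under either agent. The LPS libraries that chose these genes are also the denominator of the ranked fold changes, so the ranks are a description and not a test. Il12a, Il12b, Il23a and Il27 entered the set through libraries with LPS, being near the floor without it.

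Pattern likeness was described by Pearson r of log2 normalised counts over the 18 libraries, among 8374 genes with a mean of at least 100 normalised counts. All 18 libraries enter each r, with and without LPS alike. Il12a was most like Mex3c (r = 0.992), Lap3 (0.990) and Ppp1r15a (0.989), and Il12b was most like Tnf (0.991), Il6 (0.990) and Serpina3f (0.990). Il23a was nearest to Mob3c (0.983), Errfi1 (0.979) and Rasgef1b (0.974), Il27 to Max (0.998), Pfkp (0.997) and Wdr43 (0.997), and Ebi3 to Gm14005 (0.994), Myo1g (0.993) and Cln3 (0.993). Such an r does not compare the size of changes. Max went from 4297 mean normalised counts with LPS to 2288 with LPS + JQ1, and Il27 from 13800.5 to 542. Mex3c went from 1676 to 658, and Il12a from 1013 to 5.90. Within the 9 LPS libraries, r between members ran from 0.711 for Il23a and Ebi3 to 0.986 for Il12a and Il27.

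Of the receptor genes, 3 of 5 reached a mean of 10 normalised counts over all libraries. With JQ1 during LPS, 1 of the 5 rose and 2 fell, beside 57.3% of tested genes called and 32.9% called lower. Il6st, the shared signal chain of the IL-27 receptor, rose from 665 to 2188 mean normalised counts (log2 fold change 1.72, SE 0.06, adjusted p = 2.55e-174). Without LPS it was at 2090 in Unstimulated and 2665 in JQ1, so LPS + JQ1 lay close to the Unstimulated level and LPS below it. Il12rb2, the signal chain of the IL-12 receptor, fell from 62.7 to 20.7 (-1.59, SE 0.28, adjusted p = 5.33e-08). Without LPS, Il12rb2 was at 71.5 in Unstimulated and 19.8 in JQ1. Il27ra, the IL-27-specific chain, was at 31.3 and 18.5 (-0.78, SE 0.36, adjusted p = 0.0566). The other gene that fell was Il23r, which was under that mean and is named as 1 of the 2 that fell, with 36 counts over the LPS libraries and 0 with LPS + JQ1. With IL-10, DESeq2 called 0 of the 3 receptors that had an adjusted p, 1 had an unadjusted p under 0.05, and edgeR called 1.

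Of the kinases and STAT proteins that relay these receptors, the 5 reported were higher with LPS, beside 64.5% of tested genes called and 31.6% called higher, with the largest rise in Jak2 (log2 fold change 5.30, SE 0.11). JQ1 during LPS lowered 4 of these 5, beside 32.9% of tested genes called lower, namely Stat4 (-3.75, SE 0.69, adjusted p = 1.84e-07), Jak2 (-1.04, SE 0.11, adjusted p = 1.17e-21), Stat3 (-0.996, SE 0.09, adjusted p = 7.62e-26) and Tyk2 (-0.46, SE 0.08, adjusted p = 3.03e-08). Stat4, which transmits IL-12 signals, went from 45.5 to 3.35 mean normalised counts. Jak1 (-0.05, adjusted p = 0.353) did not pass, and its sign turned under TMM and total-count scaling and on TPM. Under total-count scaling 3 of the 5 fell and 1 rose. IL-10 raised Jak1 (0.31, SE 0.05, adjusted p = 4.64e-09) and lowered Tyk2 (-0.30, SE 0.08, adjusted p = 0.00165), and the other 3 did not pass.

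Of 12 transcription factors known to act on the family, JQ1 during LPS raised 1 and lowered 8, against 2 and 6 under total-count scaling, while 57.3% of tested genes were called and 32.9% were called lower. The rise was in Jun, an AP-1 subunit (log2 fold change 1.83, SE 0.08, adjusted p = 1.23e-121), while its partner Fos fell (-2.29, SE 0.18, adjusted p = 6.70e-36). Mean normalised counts of Jun were 1786 in Unstimulated, 3551 in JQ1, 754 in LPS and 2682 in LPS + JQ1. Those of Fos were 2085, 681, 466 and 95.3 in the same order. Falls of at least 1 were also seen in Batf (-1.63, SE 0.15), Spi1, which encodes PU.1 (-1.55, SE 0.11), and Irf1 (-1.07, SE 0.27), though Irf1 was at -0.70 under total-count scaling. IL-10 raised 4 and lowered 5 of the 12, where 17.2% of tested genes were called and 8.81% were called lower. Cebpb (1.43, SE 0.19, adjusted p = 1.32e-12) and Batf (1.08, SE 0.14, adjusted p = 1.82e-13) rose, while Irf8, an activator of Il12b (-1.45, SE 0.16, adjusted p = 9.00e-18), and Batf3 (-2.81, SE 0.71, adjusted p = 0.000954) fell. Batf3 had 44 counts over the LPS libraries and 6 over the LPS + IL-10 libraries, so the size of its fall rests on few counts.

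Among 5 repressors of the family, JQ1 raised 2 and lowered 2, and under total-count scaling it raised 3 and lowered 1, in the comparison with 57.3% of tested genes called. Bcl6, a transcriptional repressor, fell with JQ1 from 1986 to 564 mean normalised counts (log2 fold change -1.81, SE 0.10, adjusted p = 9.46e-71) and rose with IL-10 to 4088 (1.04, SE 0.09, adjusted p = 8.54e-26). IL-10 raised 3 and lowered 2, in the comparison with 17.2% of tested genes called. Of these, Irf4 fell by more than 1 (-1.40, SE 0.49, adjusted p = 0.0276), from 17.97 to 6.69 mean normalised counts.

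**Figure D4:**
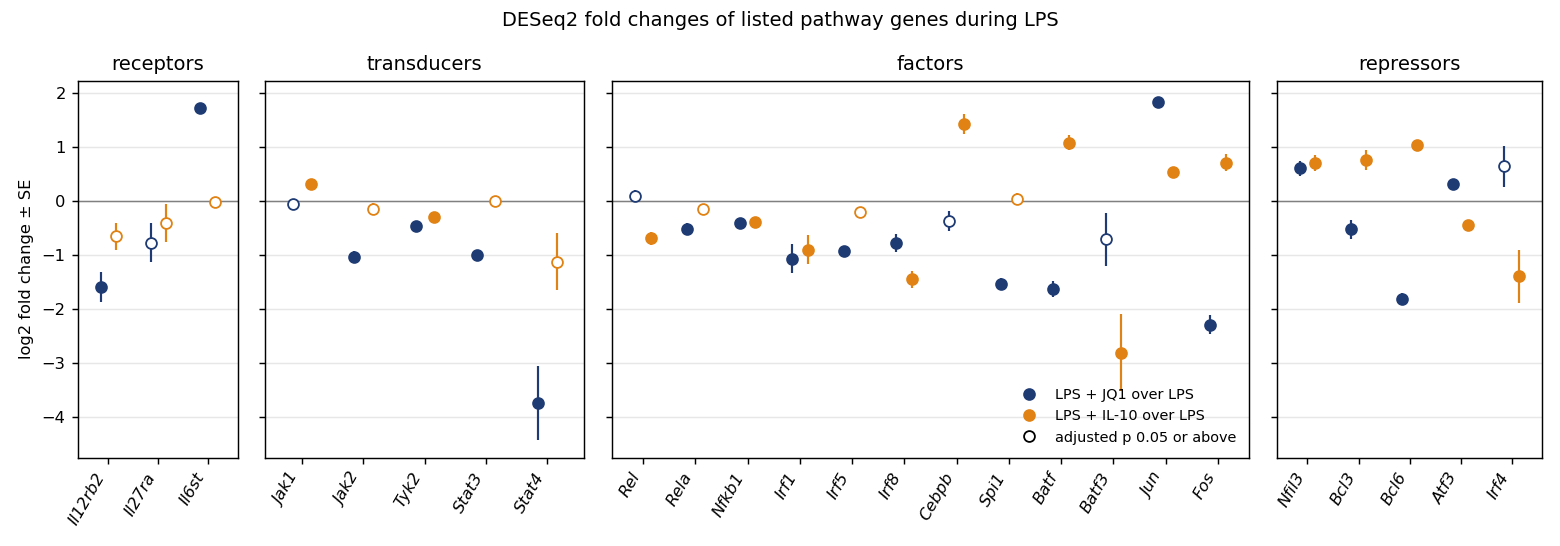
DESeq2 log2 fold change with its SE for the detected receptors and the listed transducers, transcription factors and repressors, in LPS + JQ1 over LPS (blue) and LPS + IL-10 over LPS (orange), with open symbols where the adjusted p was 0.05 or above. Batf, Fos, Bcl6 and Bcl3 fell with JQ1 but rose with IL-10, although the fall of Bcl3 (-0.53, adjusted p = 0.00635) was not called under total-count scaling (-0.15, adjusted p = 0.497). Atf3 leaned the other way, with mean normalised counts of 12088 in LPS, 15009 in LPS + JQ1 and 8854 in LPS + IL-10. So did Rel (5991, 6400 and 3702), whose rise with JQ1 was not called, and Irf4 (17.97, 27.8 and 6.69), in the same order. Il6st and Jun had the largest rises with JQ1.

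Dendritic cells also make these cytokines, and their 8 markers were read beside the results above. Their summed TPM was 63.9 to 77.5 with LPS, 31.4 to 36.1 with LPS + JQ1 and 52.0 to 63.1 with LPS + IL-10, and 69.9 to 94.8 in Unstimulated cells. Most of this was Itgax, which macrophages also express. Of the 8 markers, 4 averaged at least 10 normalised counts with LPS and 3 with LPS + JQ1. JQ1 during LPS lowered 4 of the 7 tested (Itgax, Xcr1, Ccr7 and Clec9a), or 3 under total-count scaling. In the main test of this comparison 57.3% of tested genes were called and 32.9% were called lower. Xcr1 went from 64.3 to 4.01 and Ccr7 from 49.7 to 12.6 mean normalised counts, whereas Zbtb46 was at 23.0 and 20.6 and Flt3 at 4.24 and 5.26, neither of them called. Cd209a was at 0 in all LPS libraries. Of the 8 macrophage markers, JQ1 during LPS lowered 6 and raised 1, beside the same shares of all genes, against 3 and 2 under total-count scaling. Fcgr1 went from 8084 to 302 and Itgam from 10999 to 2279 mean normalised counts. Lyz2, which makes up most of the summed macrophage level, was the marker that rose (log2 fold change 0.34, SE 0.06, adjusted p = 1.92e-09). IL-10 during LPS raised 2 and lowered 1 of the 8 macrophage markers, and lowered 1 of the 4 dendritic cell markers tested. There 17.2% of tested genes were called and 8.81% were called lower. Under total-count scaling IL-10 raised 3 macrophage markers and lowered no marker of either list. The part of these markers and cells in the falls of the 5 genes was not tested. Neutrophil markers summed to 33.2 to 47.5 TPM with LPS and 10.7 to 23.9 with LPS + JQ1, and those of T or NK cells, B cells and stromal cells stayed under 10.3 TPM in every library.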

How the data were processed

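Libraries were stranded and depleted of ribosomal RNA. Per the labels, the authors aligned to mm9 with STAR and ran RSEM 1.2.31, whose default settings, as the methods give them, ignore strand. The deposited expected counts are estimates in which a read matching several genes is shared out, and were rounded here (5.40% to 6.63% of values in a library had decimals). The deposited TPM are length-scaled levels. The authors' FPKM were not used. The main test was the DESeq2 (1.42.0) Wald test in R 4.3.3 over all 18 libraries, with no term beside group, called at a Benjamini-Hochberg adjusted p under 0.05 over all genes, with independent filtering set to that level. It gave 8 comparisons and 2 interactions. Alternatives used edgeR (4.0.16), limma (3.58.1) on log2(TPM + 1) or log2(TPM + 0.1) for genes of at least 1 TPM in 3 libraries, TMM and total-count scaling, count minimums of 10, lane, the replicate number as a block, only the groups compared, and leaving out libraries. The DESeq2 and edgeR steps were tested on simulated data. Count ratios carry exact 95% intervals, and ratios of TPM were tested with exact permutation tests (scipy 1.17.1). P-values of the main test rest on 1 estimate of spread per gene, shared by all 6 groups of cultures from 3 mice. They thus do not measure the spread of only the groups compared.

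The labels describe matched cultures from 3 mice, so replicate numbers pair the libraries. Deviations from group means correlated at a mean of 0.0787 over 45 same-numbered pairs of libraries (-0.124 to 0.469) and -0.0394 over 90 others. Replicates were not duplicates, with a chi-square per degree of freedom of 4.14 to 30.5 over 18 pairs. Positions came from GENCODE vM1 (mm9) and promoters from RefSeq. Members and gene lists were chosen with earlier results of these data known. One listed transducer is not reported here. Named by rule were all members, the detected receptors and the other detected transducers, the factors and repressors called with an absolute log2 fold change of at least 1 with JQ1 or IL-10 during LPS, and the 3 genes most like each member. Il23r, Bcl3, Atf3, Rel and the markers named singly were chosen after their values were seen. Markers fixed for 6 cell types were read as summed TPM.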

Additional observations from a re-analysis of the deposited data

Results flagged for a closer look

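The effect of JQ1 differed between cells with and without LPS for 3 of the 5 genes, by the interaction term of the DESeq2 fit, in which 41.5% of tested genes were called. Total-count scaling called 1 of the 5, Il12a, and edgeR called 1, Ebi3. The difference in log2 fold change was -5.59 for Il12a (adjusted p = 0.00573), -3.13 for Il27 (adjusted p = 0.0309) and -0.88 for Ebi3 (adjusted p = 0.00120). Ebi3 is the one of these with enough counts in all 4 groups of the interaction for a fold change in each, at -2.75 without LPS and -3.63 with it. Under total-count scaling these were -2.93 and -3.25, and the difference of -0.32 was not called (adjusted p = 0.244). That of Il27 was -2.58 there (adjusted p = 0.0623). Il12a had 2 counts in all over the Unstimulated libraries and 0 over the JQ1 libraries, and Il27 had 6 and 2, so that their differences rest on few counts. Groups of 3 were not screened for single outlying libraries.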

How the results depend on the processing

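The rises with LPS against Unstimulated and in cells given IL-10, the falls with JQ1 during LPS and the fall of Ebi3 with JQ1 alone kept their direction and call for each member under every alternative that tested it. Of the rises in cells given JQ1, that of Il12a was not called with edgeR (adjusted p = 0.0744) or limma on log2(TPM + 1) (0.0720), nor that of Il23a with the latter (0.0679). Requiring at least 10 counts in every library left only Ebi3 tested, so 1 member was called in each comparison that had called it. With IL-10 alone, the count of 2 became 0 with edgeR and with limma at both pseudocounts, 1 with the replicate block, 1 with only the groups compared, and 0 to 1 over the fits without 1 replicate. With JQ1 alone it was 2 with limma on log2(TPM + 0.1) and 1 to 2 without 1 replicate. With IL-10 during LPS, 1 to 5 were called without 1 replicate. LPS + JQ1 against LPS + IL-10 gave 5 with edgeR and with only the groups compared, and LPS + JQ1 against JQ1 gave 3 with limma on log2(TPM + 1). The interaction with JQ1 gave 1 with edgeR and with total-count scaling, 5 with limma on log2(TPM + 1) and 1 to 4 without 1 replicate, and that with IL-10 gave 4 and 1 with limma at pseudocounts 1 and 0.1. The replicate block changed no other call of a member.

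Signs turned only for values that the main test did not call. Without 1 replicate, ratio differences ran from -0.25 to 0.0050 (Il12b to Il12a, LPS + IL-10 against LPS), and for LPS + JQ1 against LPS + IL-10 from -0.85 to 0.14 (Il12b to Il23a) and from -0.41 to 0.12 (Il27 to Ebi3). In the same way Il12b with JQ1 alone ran from -5.30 to 1.21, Il27 with IL-10 alone from -1.43 to 0.15 and Il12b in the JQ1 interaction from -5.45 to 1.06. In the IL-10 interaction the ranges were -2.67 to 1.24 for Il12a, -1.44 to 4.53 for Il12b, -1.63 to 0.26 for Il27 and -0.053 to 0.23 for Ebi3. There Il12a was also at -0.26 with the replicate block, -0.17 with lane, and -2.29 and -1.94 with limma at the 2 pseudocounts, where Il12b was at -2.18 and -1.06. The causes were not tested. Over all alternatives, single-gene values kept direction and call in 836 cases, lost the call in 50, gained it in 26 and turned sign in 18. Of all genes called, the share that was higher moved under total-count scaling from 49.0% to 20.1% for LPS, from 42.5% to 64.9% for JQ1 during LPS and from 48.7% to 71.1% for IL-10 during LPS. The depth limits Il12a and Il23a most, which had 16 and 20 counts over the LPS + JQ1 libraries.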
